A study of Drosophila melanogaster with 6 samples.

Results

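The Turandot genes of Drosophila melanogaster encode small secreted stress proteins. The genes described here were TotA, TotB, TotC, TotM, TotX and TotZ, chosen by name from a table of 13035 genes measured in control adult flies and in flies mutant for the nuclear receptor ERR. Of these 6 genes 4 had a row, namely TotA, TotC, TotM and TotX, and TotB and TotZ, like the relatives TotE and TotF, were not analysed here. Poly(A) RNA of whole male flies, collected as adults of day 6, was sequenced in 3 control and 3 dERR mutant libraries. All 6 libraries came from flies of the genotype yw, hsFLP with dERR[conditional] over dERR2, so the controls also carried the dERR2 allele. In the mutant group a 1 h heat treatment on days 5 and 6 after egg laying switched on the FLP recombinase, which is driven by a heat shock promoter, and control flies were not heated. Loss of ERR and the earlier heat treatment therefore cannot be told apart. The sources used here do not give the number of flies per library or say whether libraries came from separate cultures, so p-values measure the spread between these libraries only.

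Turandot proteins are made mainly by the fat body, the fly's counterpart of liver and adipose tissue, and are released into the hemolymph after bacterial infection, heat, drying or mechanical stress. In the best studied case, TotA, blood cells release the cytokine Upd3 upon injury, Upd3 binds the receptor Domeless on fat body cells, and the kinase Hopscotch and the transcription factor Stat92E then switch the gene on. The Imd branch of innate immunity and the stress kinase kinase Mekk1 also take part. Turandot proteins bind lipids of the outer membrane of host cells and shield them from the fly's own antimicrobial peptides.

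Libraries held 13987814 to 16102936 reads assigned to genes, and values are normalized counts, which are reads divided by a size factor for each library. In the 3 mutant libraries the targeted gene ERR stood at 112, 119 and 107 normalized counts, against 373, 497 and 539 in controls, which is a log2 change of -2.03 ± 0.13 (SE; limma adjusted p = 3.58e-06). Markers of eye (ninaE), neurons (elav), testis (dj) and accessory gland (Acp26Aa) were all detected, as were the male-specific RNAs roX1 and roX2. Among the 10 markers of a whole male fly, Acp26Aa fell by 1.38 ± 0.09, about as far as TotA, and Yp3 fell by 0.62 ± 0.16 (log2, SE; adjusted p = 3.08e-06 and 0.0258, limma). The flight muscle actin Act88F rose by 2.11 ± 0.09 and roX2 by 0.35 ± 0.10 (log2, SE; adjusted p = 2.58e-07 and 0.0331, limma). The yolk protein genes Yp1 and Yp2, which are made in females, lay between 1.96 and 23.2 normalized counts, and Yp3 between 85.2 and 193. A pair of control libraries stood apart in immune genes. Control replicate 1 was highest of the 6 libraries in 10 of 13 measured antimicrobial peptide genes and held a sum of 13092 normalized counts for them, against 960 to 3282 in the other libraries. Control replicate 3 was highest in all 9 measured hemocyte (blood cell) markers, with a sum of 10526 against 6252 to 8234.

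TotX and TotA fell in the mutant flies, and TotC and TotM did not pass the test. TotX had 87.5, 107 and 130 normalized counts in control libraries and 41.1, 18.9 and 35.8 in mutant libraries. Each mutant value of TotX lay below each control value, with means of 108 ± 21.2 and 31.9 ± 11.6 (SD, n = 3 each). TotX changed by -1.78 ± 0.26 (SE) in log2(normalized count + 1), a 3.44-fold decrease, with an adjusted p of 0.000932 (limma, adjusted over all genes). In RNA of whole flies, fewer cells of a type and less RNA per cell cannot be told apart. TotX lies on chromosome arm 3R from 16730637 to 16731240 (FBgn0044810; build dm3) and has a single exon in the reference annotation.

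TotA was the most abundant Turandot gene in every library. It had 542, 747 and 456 normalized counts in control and 315, 102 and 253 in mutant libraries, so here too the groups did not overlap. The means were 582 ± 150 and 223 ± 109 (SD, n = 3 each). TotA changed by -1.50 ± 0.34 (log2, SE), a 2.82-fold decrease, with an adjusted p of 0.0121 (limma). The gene lies on 3R from 16696757 to 16697427 (FBgn0028396; dm3) and has 2 exons in the reference annotation. Without control replicate 1, the library with high antimicrobial peptide counts, the change of TotA was as large (-1.53 ± 0.43), but its adjusted p was 0.0574 (limma). The call also ended with a robust variance prior (adjusted p = 0.166, limma).

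TotC, whose expression like that of TotA is known to rise after stress, had 92.9, 84.3 and 35.2 normalized counts in control and 57.7, 22.9 and 57.7 in mutant libraries. The groups overlapped because control replicate 3 lay below mutant replicates 1 and 3. TotC had means of 70.8 ± 31.1 and 46.1 ± 20.1 (SD, n = 3 each) and changed by -0.61 ± 0.40 on the log2 scale (SE; limma adjusted p = 0.38), with a 95% interval from -1.49 to 0.28. TotM, known for its part in tolerance of fungal infection, was the least abundant, with 14.9, 36.1 and 19.1 normalized counts in control and 24.5, 8.95 and 17.9 in mutant libraries. Its groups overlapped widely, with means of 23.4 ± 11.2 and 17.1 ± 7.79 (SD, n = 3 each). The log2 change of TotM was -0.44 ± 0.40 (SE; adjusted p = 0.537, limma), with a 95% interval from -1.31 to 0.44, which leaves room for a decrease of more than 2-fold as well as for an increase. TotC lies on 3R from 16698709 to 16699310 (FBgn0044812; dm3) and TotM on 2L from 5329856 to 5330464 (FBgn0031701; dm3).

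**Figure D1:**
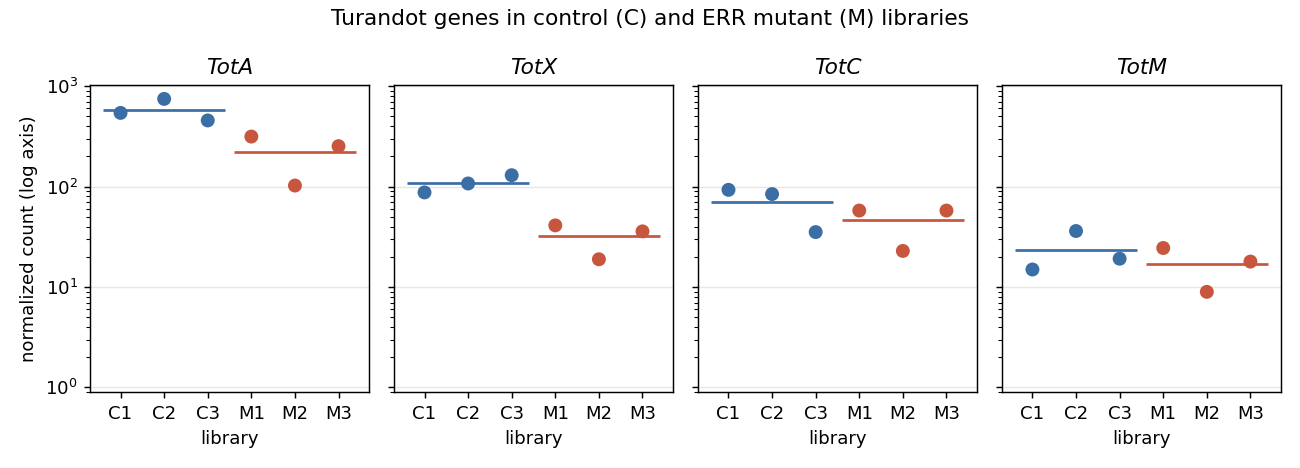
Normalized counts (log axis) of TotA, TotX, TotC and TotM in each control (C1 to C3, blue) and mutant (M1 to M3, red) library, with a line at the mean of each group. The mutant points of TotA and TotX lie below all control points, while those of TotC and TotM overlap them.

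Among the 4 measured genes 2 were thus called lower, where 9.47% of all 13035 genes were called lower and 4.73% higher (limma). For the same 2 genes all mutant libraries lay below all control libraries, as they did for 16.9% of all genes. The median log2 change of the 4 genes was -1.05, against 0.00 over all genes. Of all genes, 68 had a lower log2 change than TotX and 118 a lower one than TotA. In the authors' deposited table TotX had a maximum likelihood log2 fold change of -1.76 with an adjusted p of 1.56e-09, and TotA had -1.38 with an adjusted p of 0.0441. The authors' deposited table gave -0.62 for TotC (adjusted p = 0.625) and -0.46 for TotM (adjusted p = 0.657), and 9.04% of its genes with a p-value were called lower. The shrunken log2 fold changes in the authors' deposited table were smaller, at -1.41 for TotX, -0.74 for TotA, -0.29 for TotC and -0.27 for TotM. For any one gene in 3 against 3 libraries the smallest exact two-sided permutation p is 0.1. TotX and TotA reached it, and TotC and TotM had an exact permutation p of 0.5.

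**Figure D2:**
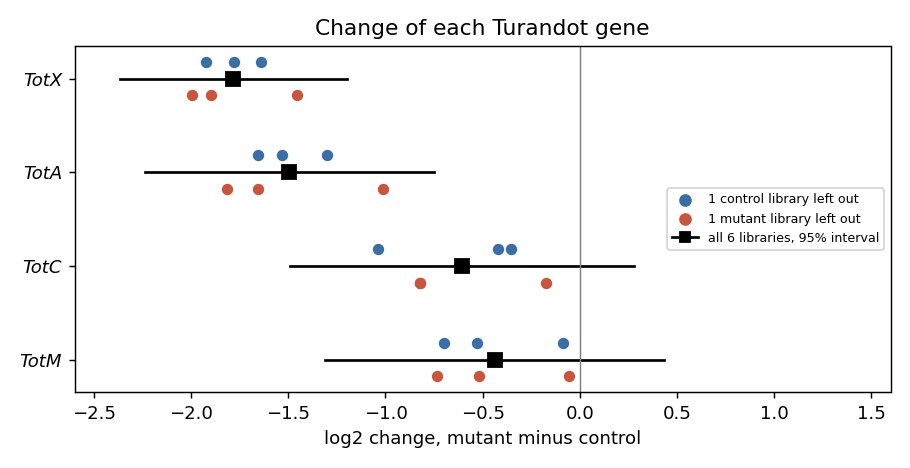
Log2 change (mutant minus control) of each Turandot gene with all 6 libraries (black square, with its 95% interval) and with 1 library left out (blue, a control library; red, a mutant library). The points of TotX stay between -1.995 and -1.45 and those of TotA between -1.82 and -1.01, while those of TotC and TotM approach 0 without mutant replicate 2; the red points of TotC without mutant replicates 1 and 3 coincide at -0.82.

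The Turandot genes varied more between libraries of a group than most genes did. Their residual SD on the log2 scale ran from 0.45 for TotX to 0.75 for TotC, against a median of 0.13 over all genes. The smallest of these, that of TotX, lay at the 95.1 percentile of all genes. By mean normalized count TotX, TotC and TotM lay at the 17.5, 15.3 and 7.25 percentiles and TotA at the 53.5 percentile. Genes of like level were not compared for their spread. Counting error was the smaller part of this spread. The coefficient of variation of TotA was 25.7% in control and 48.9% in mutant libraries, where counting alone gives 4.12% and 6.65%. TotM, with 9 to 39 reads a library, had 47.9% and 45.5%, where counting alone gives 20.4% and 24.3%.

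The 4 genes moved alike among the mutant libraries. Mutant replicate 2 had the lowest value and mutant replicate 1 the highest for each of them, although mutant replicates 1 and 3 were nearly level for TotC. Over all genes mutant replicate 2 was the lowest mutant library for 35.9%. Mutant replicate 2 lay below the mutant mean by 0.66 (TotX), 0.97 (TotA), 0.87 (TotC) and 0.76 (TotM) on the log2 scale. The control libraries had no such common order, with the highest value of TotX in control replicate 3, those of TotA and TotM in control replicate 2 and that of TotC in control replicate 1. TotC was 0.87 below its control mean in control replicate 3, the library in which TotX was 0.28 above. Without mutant replicate 2 TotX changed by -1.45 ± 0.19 and TotA by -1.01 ± 0.18 (log2, SE; adjusted p = 0.000637 and 0.00423, limma). TotC and TotM then had log2 changes of -0.17 ± 0.34 and -0.06 ± 0.36, and that of TotM was -0.09 ± 0.40 without control replicate 2. In the other direction TotC reached -1.04 ± 0.36 without control replicate 3 (adjusted p = 0.117, limma).

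**Figure D3:**
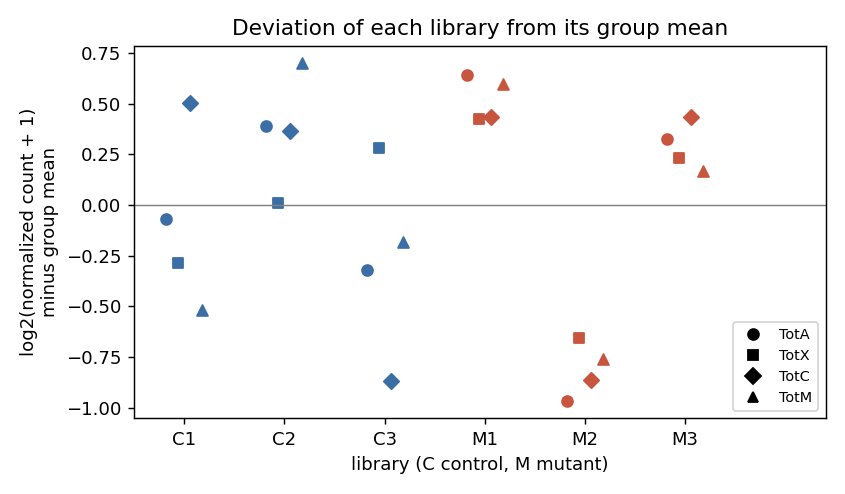
Deviation of each library from its group mean, in log2(normalized count + 1), for TotA (circles), TotX (squares), TotC (diamonds) and TotM (triangles). All 4 genes lie below 0 in mutant replicate 2 and above 0 in mutant replicates 1 and 3, whereas the control libraries (blue) show no common order.

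Summed over the 4 genes, the control libraries held 738, 975 and 640 normalized counts and the mutant libraries 438, 153 and 364. The sums did not overlap, and the mutant mean was 40.6% of the control mean. Per kilobase of the gene's span, TotA stood at 867 ± 223 normalized counts in control libraries, TotX at 179 ± 35.1, TotC at 118 ± 51.6 and TotM at 38.4 ± 18.4 (SD, n = 3 each). The level of TotA was separate from the others in every library. Control levels of TotX (145 to 215 per kilobase) and TotC (58.5 to 154) overlapped, and TotX was above TotC in control replicates 2 and 3 alone, so the order of this pair was not the same in each control library. The ranges of TotC and TotM (24.5 to 59.3) also overlapped, but within each of the 6 libraries TotC was above TotM. In mutant libraries the order of the middle pair was the other way round, with TotC at 76.6 ± 33.4 and TotX at 52.9 ± 19.2 per kilobase (SD, n = 3 each). TotC lay above TotX in each mutant library.

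Shares of the Turandot pool do not depend on how libraries are scaled. Of the summed level per kilobase, TotC made up 5.94 to 13.6% in control and 14.2 to 17.1% in mutant libraries. TotM made up 2.17 to 3.98% in control and 5.24 to 6.21% in mutant libraries. TotA ranged from 69.0 to 74.7% and from 64.5 to 69.7%, and TotX from 11.9 to 21.8% and from 10.1 to 13.2%, with overlap. Between pairs of genes, the log2 difference of TotX minus TotC averaged 0.70 in control and -0.47 in mutant libraries, and that of TotA minus TotM averaged 4.64 and 3.59. Of the 6 pairs compared, 4 had no overlap between groups (TotX or TotA against TotC or TotM), each at the smallest exact permutation p of 0.1 that the design allows (adjusted p = 0.15 over the 6 pairs). These pairs share genes, so they are not separate results. The share of all gene pairs without overlap was not worked out, so the count is a description only. The change of TotX and that of TotA differed by -0.29 (exact permutation p = 0.6).

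TotA and TotC lie on the same strand of 3R with 1281 bases between them, and TotX lies 31326 bases beyond TotC on the opposite strand. TotA and TotC each encode 129 residues, TotM 131 and TotX 142 in the reference annotation. Turandot genes are paralogs, and the sources used here do not say how reads that match several of them were counted, so values of similar members may share reads. TotX lies wholly inside CG5621 (current name Grik, a glutamate receptor gene), on the opposite strand and within an intron, with 0 of the 602 exon bases of TotX shared. CG5621 rose from 312 ± 25.2 to 412 ± 19.4 normalized counts (SD, n = 3 each; log2 change 0.40 ± 0.09, SE; adjusted p = 0.0121, limma), the opposite direction to TotX. The other measured genes within 10 kb of TotA, TotC or TotX were CG3822 (log2 change 0.17), CG10830 (-0.02), CG5630 (0.09) and CG31191 (-0.10), of which none passed the test in limma (lowest adjusted p = 0.368, lowest unadjusted p = 0.151).

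TotM has neighbours that changed in both directions. Its end lies 4 bases from fusl, on the opposite strand, which fell from 958 ± 48.5 to 557 ± 43.3 normalized counts (SD, n = 3 each; adjusted p = 9.21e-05, limma). CG14022 and cype, a cytochrome c oxidase subunit, rose by 0.75 ± 0.07 and 0.41 ± 0.07 (log2, SE; adjusted p = 5.41e-05 and 0.00293, limma). Ncoa6 and CG12512 had log2 changes of -0.24 and 0.11 (adjusted p = 0.315 and 0.528, limma). The sources used here do not say whether counting used strand, so reads running past the end of fusl cannot be told from those of TotM.

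**Figure D4:**
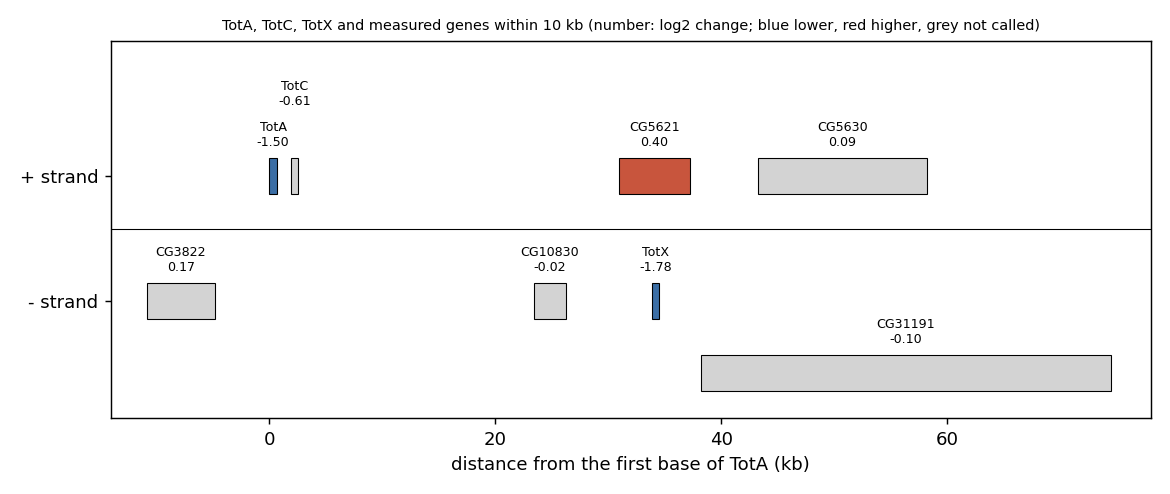
Position of TotA, TotC, TotX and the measured genes within 10 kb of them, as distance from the first base of TotA in kb, by strand, with the log2 change printed above each gene (blue lower, red higher, grey not called; the long gene CG31191 is drawn lower for space). TotX (-1.78) lies inside CG5621 (0.40), and TotA (-1.50) and TotC (-0.61) are adjacent.

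RNA levels of genes of the pathway that switches on Turandot genes were measured in the same flies, but the activity of the pathway was not. For comparison with the lists below, 9.47% of all genes were called lower and 4.73% higher (limma). Of 13 measured JAK/STAT genes 1 was called, against 14.2% of all genes in either direction, and the list's median log2 change was 0.03. That gene was upd3, the cytokine of blood cells and gut, which had 8.54, 5.56 and 6.04 normalized counts in control and 21.5, 17.9 and 25.9 in mutant libraries. The upd3 groups did not overlap, and upd3 rose by 1.57 ± 0.30 (log2, SE; adjusted p = 0.00441, limma) on 6 to 26 reads a library. The receptor gene dome had a log2 change of -0.20 ± 0.09, the kinase gene hop -0.13 ± 0.10 and Stat92E -0.07 ± 0.09 (SE; adjusted p = 0.2, 0.438 and 0.648, limma). The feedback inhibitor Socs36E, itself a STAT target, had 443, 306 and 339 normalized counts in control and 292, 340 and 353 in mutant libraries, and its log2 change was -0.13 ± 0.13 (SE; adjusted p = 0.597, limma). Among 10 other STAT targets and thioester protein genes 3 fell, with a median log2 change of -0.08. These were TepII (-0.55 ± 0.14) and TepIV (-0.42 ± 0.11), complement-like proteins, and the antibacterial gene Listericin (-0.44 ± 0.10; log2, SE; adjusted p = 0.0217, 0.0297 and 0.017, limma). The number that fell was 0 without control replicate 1 or control replicate 3 and 1 without mutant replicate 2. Another gene of this list, vir-1, which responds to viruses through JAK/STAT, had a log2 change of 0.27 ± 0.11 (SE; limma adjusted p = 0.162).

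Of 15 Imd pathway genes 2 fell, against 9.47% of all genes called lower, and the list's median log2 change was 0.03. These were PGRP-LB, which cleaves peptidoglycan (-0.64 ± 0.10, adjusted p = 0.00124), and PGRP-LF, an inhibitory receptor (-0.47 ± 0.14, adjusted p = 0.0492, log2, SE, limma). The NF-kB factor Rel had a log2 change of 0.18 ± 0.10 (SE; limma adjusted p = 0.311). The number of Imd genes that fell was 1 without any one library other than mutant replicate 1. Antimicrobial peptide genes, the effectors of this branch, were dominated by control replicate 1, as given above. Of 13 measured, CecA1 (-0.40 ± 0.11) and CecA2 (-0.96 ± 0.27) fell and AttD (1.46 ± 0.39) rose (log2, SE; adjusted p = 0.0283, 0.0404 and 0.0305, limma). AttD had only 3, 3 and 7 reads in control and 14, 12 and 13 in mutant libraries. Without control replicate 1, control replicate 2 or mutant replicate 1 the numbers of antimicrobial peptide genes called were 0 lower and 0 higher. The number lower was also 0 without mutant replicate 2 and 1 without mutant replicate 3, where the number higher was 0. TotC was the only one of the 4 Turandot genes with its highest value in control replicate 1.

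Among 16 genes of the p38 and JNK stress kinase pathways 2 rose, the JNK phosphatase puc, a standard readout of JNK activity, by 0.36 ± 0.08 and the TNF receptor gene wgn by 0.27 ± 0.07 (log2, SE; adjusted p = 0.0152 and 0.0311, limma). Mekk1, which is needed for TotA induction, had a log2 change of 0.00 ± 0.09 (SE). The number that rose was 0 without control replicate 3, 1 without control replicate 2 or any one mutant library, and 0 when scaled to ribosomal protein genes. Of 13 measured heat shock genes 3 rose, with a median log2 change of 0.19. These were Hsp22 (0.55 ± 0.09), Hsp67Bb (0.53 ± 0.09) and the co-chaperone stv (0.31 ± 0.08; log2, SE; adjusted p = 0.00158, 0.00155 and 0.0189, limma). Hsp22 (3L from 9366030 to 9368064) lies wholly inside the span of Hsp67Bb (9365821 to 9368064), and both had nearly the same values in each library. They may be the same reads counted for both, so their calls are not separate results. The summed level of the heat shock list was 33833 to 34620 normalized counts in control and 35429 to 38641 in mutant libraries. This sum includes both Hsp22 and Hsp67Bb. Most of it was Hsp83, at 22701 ± 256 in control and 23033 ± 142 in mutant libraries (SD, n = 3 each). Heat treatment and loss of ERR cannot be told apart in these libraries, and the part of either in the change of TotX and TotA was not tested.

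**Figure D5:**
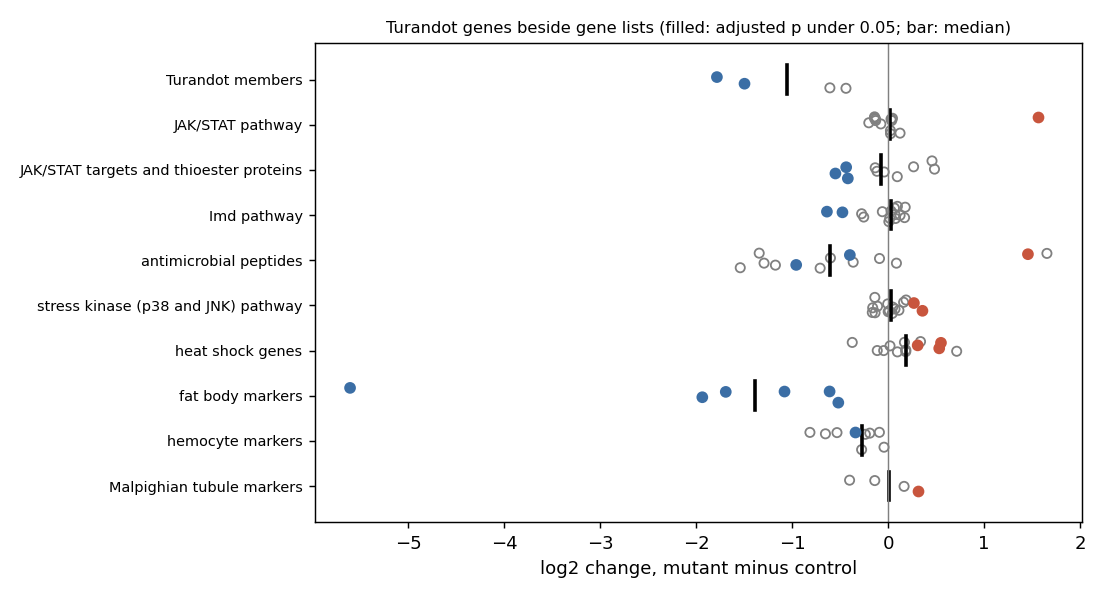
Log2 change (mutant minus control) of each measured gene in the Turandot group and in lists of related pathways and cell type markers, where each point is a gene, filled points passed an adjusted p of 0.05 (blue lower, red higher; limma) and the bar is the median of the list. TotX, TotA and TotC lie within the wide range of the fat body markers (-5.61 to -0.52), all 6 of which fell. TotA, TotC and TotM also lie within the range of the antimicrobial peptides (-1.54 to 1.66). The JAK/STAT list centres on 0.03 with upd3 at 1.57.

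Fat body markers fell alongside TotX and TotA, as did the accessory gland gene Acp26Aa given above. All 6 measured markers were called lower, with a median log2 change of -1.38, and each had no overlap between groups. Rfabg, which encodes the apolipoprotein of lipid transport, changed by -1.93 ± 0.12, Lsd-1, a protein of lipid droplets, by -1.69 ± 0.15, Nplp2 by -1.08 ± 0.09 and the larval serum protein Lsp2 by -5.61 ± 0.34 (log2, SE; adjusted p = 3.08e-06, 2.91e-05, 1.86e-05 and 2.44e-06, limma). The summed level of the markers was 68208 to 76612 normalized counts in control and 22996 to 29173 in mutant libraries. Within the mutant group the sum was lowest in mutant replicate 2 and highest in mutant replicate 1, the same libraries as for the Turandot genes, though it spread by a smaller factor. This order was not particular to fat body, as the hemocyte sum and the total of all normalized counts also had it. Rfabg, Nplp2, CG15828 and GRHR had this order, but Lsd-1 and Lsp2 were lowest in mutant replicate 3. The part of the fall of the fat body markers, or of Acp26Aa, in the change of TotX and TotA was not tested.

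Of 9 measured hemocyte markers 1 fell, srp, a GATA factor of blood cells and fat body (-0.34 ± 0.09, log2, SE; adjusted p = 0.0241, limma), and the list's median was -0.27. The number that fell was 3 without mutant replicate 1 and 0 without any one of the other libraries except control replicate 2. It was 2 when libraries were scaled to ribosomal protein genes and 0 when scaled to library size. The summed level of the hemocyte list overlapped between groups, at 6619 to 10526 and 6252 to 8234 normalized counts. Of 4 Malpighian tubule (kidney-like) markers 1 rose, the potassium channel gene Irk2 (0.32 ± 0.08, log2, SE; adjusted p = 0.0204, limma). That number was 0 without control replicate 2, control replicate 3 or mutant replicate 1, and 0 when scaled to ribosomal protein genes. A tubule marker was called lower without mutant replicate 1.

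The genes whose profile over the 6 libraries was most like the mean profile of the 4 Turandot genes were CG14160, CR43459, CG42470, CR43917 and CR43713, of which the 3 with a CR name are annotated as long noncoding RNAs. Likeness was the root mean square difference in log2(normalized count + 1) between centred profiles, over 12093 candidates with a mean of at least 20 normalized counts. It was 0.26 for CG14160 and 0.28 for CR43713, against a median of 0.72 over all candidates. Against the same mean, to which each contributes, TotA differed by 0.22, TotM by 0.40, TotC by 0.42 and TotX by 0.46. CG14160 had normalized counts of 162 ± 24.6 in control and 90.3 ± 22.0 in mutant libraries (SD, n = 3 each). Its mutant values all lay below its control values, but it was chosen for likeness to a profile that fell in the mutant libraries. That fall is therefore no separate result.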

How the data were processed

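The authors deposited a table of 13035 genes with 1 column of signal per library, each the reads divided by a size factor of that library. Each value was a whole multiple of a step per library (tolerance 1e-06), from which reads were worked out. The steps were not accepted as recovered counts in all libraries, so the planned fallback, limma-trend on log2(normalized count + 1), was used. The deposited table also gives, per the file headers, the authors' log2 fold change, its standard error and test statistic (recorded here as a score), a p-value and its adjusted value. The submitters' processing notes name Novoalign, DESeq2 and build dm3; the counting step, its strand setting and its annotation were not given in the sources used here.

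Limma 3.58.1 (R 4.3.3) was fitted on all genes and 6 libraries, with a group term, a trended variance, no filter and Benjamini-Hochberg adjustment over all genes (threshold 0.05). It was tested on simulated data with less spread between libraries than the Turandot genes had, so that test does not bear on their calls. Tables and figures were made with Python 3.11.15, pandas 2.3.3, numpy 2.4.6 and matplotlib 3.10.9. The members and gene lists were chosen with earlier results of these data known, so no list test was made. Genes named are the members, ERR, up to 4 called genes per direction from each list or its 2 most abundant genes, genes within 10 kb of a member and the 5 nearest profiles. The text names part of these, and dome, hop, Stat92E, Socs36E, vir-1, Rel and Mekk1 were added for their roles after their values were seen. Also named outside this rule were CG15828, GRHR, Hsp83, ninaE, elav, dj, roX1, Yp1 and Yp2. Strand, exon number and protein length came from a reference annotation on another build, used for no coordinates. A planned promoter motif search was not run. Alternatives covered pseudocount, filter, scaling, variance prior, limma-voom and leaving out each library.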

Additional observations from a re-analysis of the deposited data

How the results depend on the processing

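No paired analysis was possible because the labels number no replicates, and the numbers used here serve as names. Scaling moved the balance of calls over all genes. Calls were 617 higher and 1234 lower with the authors' size factors, 1293 and 992 with library size, 919 and 1080 with quantile normalization, and 204 and 1929 with scaling to ribosomal protein genes, which shifted the median of all genes by -0.15 (log2). Under these 3 scalings TotX ranged from -1.70 to -1.93 and TotA from -1.41 to -1.65, and both stayed called. The direction of each of the 4 Turandot genes was the same under all alternatives run. The call of TotA ended with a robust variance prior (-1.50, adjusted p = 0.166, limma), where 1 member was called lower, and without control replicate 1 (adjusted p = 0.0574, limma). Leaving out a library gave log2 changes of -1.995 to -1.45 for TotX, -1.82 to -1.01 for TotA, -1.04 to -0.17 for TotC, -0.74 to -0.06 for TotM and -2.19 to -1.92 for ERR, and 1 to 2 members called lower.

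Counts of called list genes moved as follows, and the cause was not tested. With library size, Imd genes were 1 higher and 1 lower, antimicrobial peptides 1 lower and hemocyte markers 0 lower. With quantile normalization, Imd genes were 1 lower and antimicrobial peptides 0 lower. With scaling to ribosomal protein genes, stress kinase genes were 0 higher and 1 lower, heat shock genes 1 lower, hemocyte markers 2 lower and tubule markers 0 higher. Antimicrobial peptides were 1 lower with the robust prior and with limma-voom, and 0 higher among genes with a mean of at least 10 normalized counts, where fewer genes are tested. Leaving out a library gave 0 to 3 STAT targets lower, 0 to 1 Imd genes higher and 1 to 2 lower, 0 to 1 antimicrobial peptides higher and 0 to 2 lower, 0 to 2 stress kinase genes higher, 0 to 3 hemocyte markers lower, and 0 to 1 tubule markers higher and 0 to 1 lower. In the 23 combinations of list, direction and setting that brought such a number to 0 (limma), 0 to 4 genes of the list still had an unadjusted p under 0.05 in that direction. Per kilobase of coding length, the control levels of TotA, TotX, TotC and TotM were 1504, 254, 183 and 59.5 normalized counts, in the same order as per gene span. Depth limits TotM most, at 9 to 39 reads a library.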
